A study of Mus musculus with 4 samples.

Results

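The genes described are 9 genes of the DNA damage checkpoint and of DNA repair, namely Atm, Atr, H2afx, Mdc1, Chek1, Chek2, Brca1, Brca2 and Fancd2, out of 31053 features of the gene list. They were chosen by name, for their roles, with earlier results of these data known. All 9 were in the list. They were measured in single cells of mouse pituitary glands in 4 libraries: WT and p25OE mice at 14 weeks of age, and WT and p25OE mice at 40 weeks. All 4 groups carry the same strain label, C57BL/6- B6;CBA-BiTg mice. The p25OE animals overexpress p25, which is cut from the Cdk5 activator p35, and the WT animals were their littermates. The labels used here give neither the promoter that drives the transgene nor the number of animals behind a library. With 1 library in each group, the design holds no replicate error, and differences are given with counting intervals and without p-values. Intervals in the text are exact 95% intervals and cover counting error only.

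When DNA breaks or a replication fork stalls, the kinases Atm and Atr are activated and phosphorylate many proteins, among them the histone variant H2AX, the product of H2afx. Mdc1 binds the phosphorylated histone and holds repair factors at the site, while Chek1 and Chek2 carry the signal to the cell cycle machinery. Brca1, Brca2 and Fancd2 act in repair itself, Brca1 and Brca2 in homologous recombination and Fancd2 in the Fanconi pathway that removes crosslinks between DNA strands. Transcripts of several of these genes, Chek1, Brca1 and Fancd2 among them, are known to be most abundant in dividing cells. The pituitary intermediate lobe consists mainly of melanotrophs, which make the hormone precursor Pomc and rarely divide in the adult.

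RNA was counted with unique molecular identifiers (UMIs), tags that mark single captured molecules near the 3′ end of a transcript. Barcodes with at least 500 detected genes and at most 20% mitochondrial UMIs were kept, which left 6579, 7667, 7927 and 7726 cells with median depths of 10778, 6340, 4940 and 6626 UMIs. This order, WT and p25OE at 14 weeks and then WT and p25OE at 40 weeks, is used throughout. Cells were sorted into classes by marker genes. Melanotroph-gated cells had at least 8 UMIs of Pcsk2, Pax7, Oacyl and Rbfox3 per 10000, at least 3 such UMIs, and Pomc at 1% or more of their UMIs. They numbered 542, 1600, 570 and 6555, with median depths of 17522, 9000, 7150 and 7123 UMIs. Such a gate is a range and not a cell type, and 10.1%, 23.6%, 33.5% and 27.0% of the gated cells lay within 2-fold of a threshold. All 6 listed melanotroph markers were found in the gated cells of every library, but Pomc, Pcsk2, Pax7, Oacyl and Rbfox3 also define the gate. Only Tbx19 does not, and it was found in 72.7%, 49.75%, 21.4% and 29.9% of the gated cells. Tbx19 is a listed corticotroph marker as well. Between 32 and 135 barcodes were shared by the libraries of 1 age, and no more than 5 across ages. The labels give the same kit for all libraries, and the reason for the small overlap across ages was not tested. Levels are therefore compared between genotypes at each age and not between ages.

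Levels are given as CPM, a gene's UMIs over all UMIs of the class, scaled to a fixed total. Ratios of p25OE over WT were in addition scaled so that the median gene of the class stands near 1, and plain CPM ratios lie 0.18 higher at 14 weeks and 0.37 higher at 40 weeks on the log2 scale. As a check of the labels, Cdk5r1, which encodes p35, stood at 14.1, 20.8, 18.3 and 17.2 scaled CPM in melanotroph-gated cells. Its p25OE over WT ratio was 1.48 (1.23 to 1.78) at 14 weeks and 0.935 (0.719 to 1.24) at 40 weeks, and whether RNA from the transgene is counted as Cdk5r1 is not stated. Mcm2, a subunit of the replicative helicase that the study names, had ratios of 4.58 (3.85 to 5.49) and 5.25 (3.83 to 7.40). The kinase gene Cdk5 had ratios of 1.16 and 0.798.

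Promoter sequences of 7 of the 9 genes were found in RefSeq for build GRCm38.p6, each a window around the start annotated there, most of it upstream of that start. Shown are Mdc1 and Brca2, whose levels went together most closely over classes and libraries, Chek2, which went with neither, and Brca1 and Chek1, which had the highest genotype ratios at 14 weeks. The genes themselves lie, on GRCm38, at chr17:35841515-35859670 (Mdc1), chr5:150522630-150570329 (Brca2), chr5:110839979-110874145 (Chek2), chr11:101488764-101551955 (Brca1) and chr9:36708482-36727065 (Chek1). For Chek1 the printed window lies wholly inside this gene span, so the annotations of gene and window place its start differently. Capitals mark the letters of E2F motifs (TTTCCCGC, TTTGGCGC, TTTCGCGC or TTTGCCGC) and of the CCAAT box, searched on both strands.
Mdc1, chr17:35841248-35841547, plus strand: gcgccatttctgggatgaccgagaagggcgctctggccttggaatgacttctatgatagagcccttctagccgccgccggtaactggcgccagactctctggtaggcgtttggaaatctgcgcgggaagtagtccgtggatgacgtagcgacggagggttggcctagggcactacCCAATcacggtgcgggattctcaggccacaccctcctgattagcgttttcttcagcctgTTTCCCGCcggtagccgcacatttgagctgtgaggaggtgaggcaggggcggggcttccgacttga
Brca2, chr5:150522371-150522670, plus strand: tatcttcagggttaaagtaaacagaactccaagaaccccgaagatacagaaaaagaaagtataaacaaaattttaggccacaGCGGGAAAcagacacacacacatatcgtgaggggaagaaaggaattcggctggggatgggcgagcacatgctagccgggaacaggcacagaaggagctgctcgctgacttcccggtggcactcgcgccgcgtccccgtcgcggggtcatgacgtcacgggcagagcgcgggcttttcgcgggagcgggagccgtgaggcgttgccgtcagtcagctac
Chek2, chr5:110839733-110840032, plus strand: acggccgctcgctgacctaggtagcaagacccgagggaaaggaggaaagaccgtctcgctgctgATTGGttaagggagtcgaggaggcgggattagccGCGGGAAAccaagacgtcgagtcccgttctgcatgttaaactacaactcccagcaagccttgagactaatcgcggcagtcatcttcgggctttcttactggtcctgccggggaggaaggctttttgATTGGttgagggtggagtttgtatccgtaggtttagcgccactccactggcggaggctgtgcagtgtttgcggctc
Brca1, chr11:101551906-101552205, minus strand: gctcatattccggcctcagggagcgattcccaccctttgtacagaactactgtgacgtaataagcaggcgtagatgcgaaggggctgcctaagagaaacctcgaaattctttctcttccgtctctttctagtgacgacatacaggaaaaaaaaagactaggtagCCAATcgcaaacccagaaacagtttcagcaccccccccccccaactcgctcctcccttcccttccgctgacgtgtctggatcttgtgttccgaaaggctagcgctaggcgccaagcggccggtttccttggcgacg
Chek1, chr9:36726609-36726908, minus strand: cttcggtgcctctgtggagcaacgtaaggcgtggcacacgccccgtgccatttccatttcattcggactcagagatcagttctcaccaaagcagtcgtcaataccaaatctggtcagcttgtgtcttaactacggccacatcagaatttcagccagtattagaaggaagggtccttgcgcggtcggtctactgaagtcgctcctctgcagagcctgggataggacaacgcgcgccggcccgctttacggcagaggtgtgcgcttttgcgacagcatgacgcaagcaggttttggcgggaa
The E2F letters TTTCCCGC, or their complement, occurred in Mdc1 at position -16, in Brca2 at -168 and in Chek2 at -152, counted from the annotated start to the first base of the match as printed. Among 32851 mouse promoters of the same length, 2.26% held 1 of these E2F spellings. CCAAT occurred in Chek2, Mdc1, Brca1 and Atm, and in 37.4% of all promoters. The cell cycle homology region letters TTTGAA were in none of the 7 windows and in 17.9% of all promoters. These matches describe the printed letters, miss any motif cut by the edge of a window, and say nothing on binding.

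In melanotroph-gated cells 6 of the 9 genes, Chek1, Mdc1, Brca1, Brca2, H2afx and Fancd2, were at least 1.5-fold higher in p25OE than in WT at both ages, and none was 1.5-fold lower. Of all 14618 genes with at least 20 UMIs at 14 weeks, 17.7% were at least 1.5-fold higher and 9.61% at least 1.5-fold lower. At 40 weeks these shares were 20.2% and 18.6% of 15497 genes. The median log2 ratio of the 9 genes was 1.55 at 14 weeks and 1.5 at 40 weeks, beside 0.04 and 0.01 for all genes tested. Because the 9 genes were chosen with earlier results of these data known, these values are descriptions. The initiating kinases Atm and Atr and the effector kinase Chek2 stayed under the 1.5-fold mark at both ages.

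**Figure D1:**
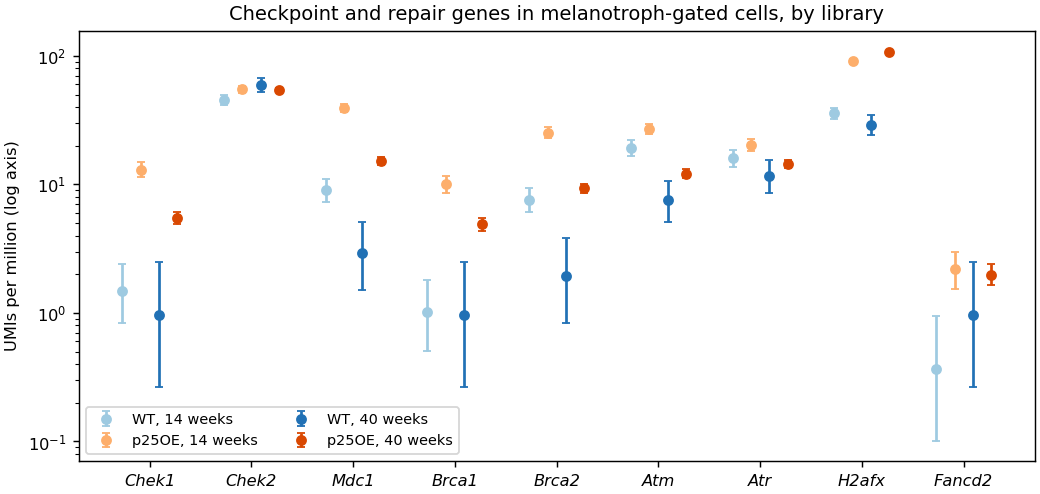
Level of each of the 9 genes in melanotroph-gated cells, in CPM on a log axis, by library, with exact 95% Poisson intervals as bars. H2afx stands at 90.9 and 107 in p25OE against 35.8 and 29.1 in WT, while Chek2 stands at 55.0 and 54.5 in p25OE against 45.3 and 59.2 in WT.

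Among the initiating kinases, Atm, which responds to double-strand breaks, stood at 19.3, 27.2, 7.52 and 12.1 CPM. The p25OE library was the higher of each pair, with ratios of 1.24 (1.05 to 1.47) and 1.25 (0.869 to 1.85), but the second became 0.794 when each cell was thinned to 1000 UMIs. Atr, which responds to single-stranded DNA at stalled forks, stood at 15.98, 20.2, 11.6 and 14.4 CPM, and its intervals for the genotypes overlapped at both ages. Its ratios were 1.11 (0.926 to 1.34) and 0.955 (0.713 to 1.31), and the second became 1.24 by plain CPM and 2.09 after thinning to 1000 UMIs. So thinned, 3 of 570 WT cells at 40 weeks held an Atr UMI. Reads of Atr may mix with those of an antisense neighbour, Gm16794, for which 1062 UMIs were counted in the kept cells. The counting is not stated to use the strand.

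The chromatin step showed larger differences. H2afx, the source of the histone that is marked at breaks, reached 35.8, 90.9, 29.1 and 107 CPM on 390, 1578, 120 and 5964 UMIs. The p25OE value lay above the WT value at each age, and the ratios were 2.23 (2.0 to 2.50) and 2.83 (2.37 to 3.42). H2afx UMIs were found in 45.0%, 50.1%, 17.9% and 48.3% of the gated cells. After thinning each cell to 1000 UMIs the shares were 5.19%, 9.33%, 3.16% and 10.8%, and in macrophage-gated cells, read here as the background from free RNA, 1.26%, 2.97%, 1.36% and 6.88%. The macrophage-gated cells had median depths of 3484, 3271.5, 2384 and 3073 UMIs before thinning. Their share was itself highest in p25OE at 40 weeks, and whether it is free RNA or their own RNA was not tested.

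Mdc1, the mediator that reads the marked histone, stood at 9.0, 39.6, 2.91 and 15.3 CPM. It was higher in both p25OE libraries, with ratios of 3.87 (3.13 to 4.83) and 4.05 (2.31 to 7.87), the latter against 12 UMIs in WT. The ratios became 6.96 and 7.17 when each cell was thinned to 1000 UMIs. So thinned, only 3 of 540 WT cells at 14 weeks and 1 of 570 at 40 weeks held a Mdc1 UMI. Thinned cells with a Mdc1 UMI made up 0.556%, 3.82%, 0.175% and 1.64% of the gated cells, beside 1.26%, 1.27%, 0.303% and 0.625% of macrophage-gated cells. The WT shares thus did not exceed those of macrophage-gated cells, and whether the latter come from free RNA was not tested.

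The effector kinases parted. Chek1, the kinase downstream of Atr that restrains entry into mitosis, stood at 1.47, 13.0, 0.971 and 5.50 CPM, on 16, 226, 4 and 307 UMIs. Its ratio was 7.80 (4.70 to 13.9) at 14 weeks, where 210 of the 14618 genes tested had a higher one, and 4.38 (1.69 to 16.2) at 40 weeks. The latter became 7.94 without the 6% of cells with the most UMIs and 7.78 as a mean of per-cell CPM. After thinning, 0.185%, 1.13%, 0% and 0.507% of the gated cells held a Chek1 UMI, where 0 of 570 cells allows a share of up to 0.645%. In macrophage-gated cells the first pair of shares was 0.180% and 0.424%, and 0 of 661 and 0 of 160 cells at 40 weeks allow up to 0.557% and 2.28%.

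Chek2, the kinase downstream of Atm, stood at 45.3, 55.0, 59.2 and 54.5 CPM. Its ratio was 1.07 (0.958 to 1.19) at 14 weeks and 0.710 (0.623 to 0.812) at 40 weeks. By plain CPM the latter was 0.920. Unlike Chek1, Chek2 was found in 49.8%, 37.0%, 31.6% and 34.3% of melanotroph-gated cells, and in 4.07%, 4.82%, 4.56% and 5.40% after thinning. Thinned macrophage-gated cells gave 1.08%, 1.70%, 1.51% and 1.25% for Chek2.

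**Figure D2:**
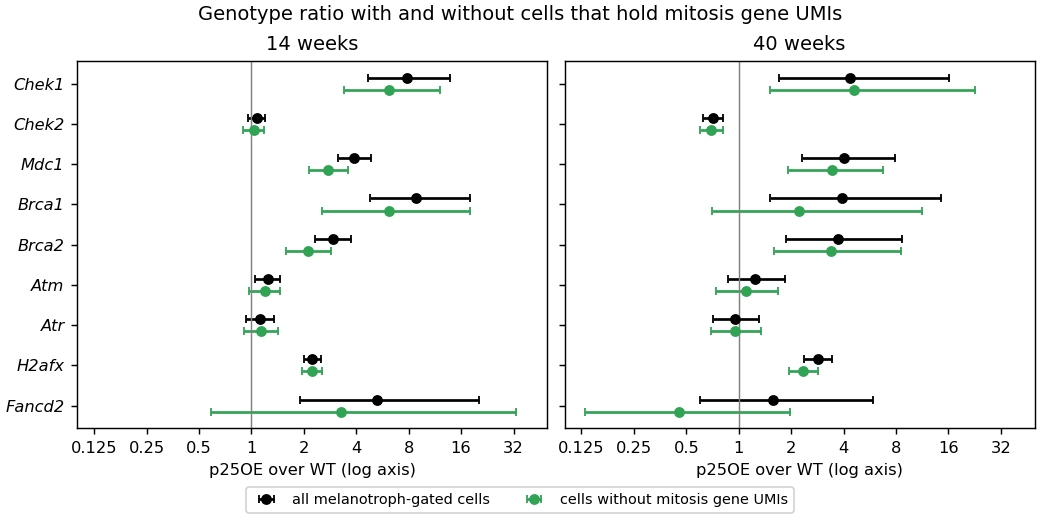
Ratio of p25OE over WT for the 9 genes at 14 and 40 weeks on a log axis, with exact 95% intervals, in all melanotroph-gated cells (black) and in those without a UMI of 10 mitosis genes (green). At 14 weeks Chek1 stands at 7.80 and 6.19 and Chek2 at 1.07 and 1.03, in that order.

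The repair genes were scarce in WT. Brca1, which directs breaks to homologous recombination, stood at 1.01, 10.1, 0.971 and 4.91 CPM, on 11, 175, 4 and 274 UMIs. Its ratio of 8.78 (4.79 to 17.9) at 14 weeks was the highest of the 9 genes, and at 40 weeks it was 3.91 (1.51 to 14.4). Brca2, which acts in homologous recombination, stood at 7.62, 25.3, 1.94 and 9.32 CPM, again higher in both p25OE libraries. The ratios of Brca2 were 2.93 (2.31 to 3.75) and 3.71 (1.87 to 8.63).

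Fancd2, which is loaded onto DNA at crosslinks, stood at 0.367, 2.19, 0.971 and 1.99 CPM on 4, 38, 4 and 111 UMIs. Its ratio was 5.24 (1.89 to 20.2) at 14 weeks, while the 40-week ratio of 1.58 (0.601 to 5.91) has an interval that spans 1 and rests on 4 WT UMIs. With the mean of per-cell CPM in place of summed counts the latter turned to 0.866. For Fancd2 and Brca2 some reads could belong to overlapping genes, of which Fancd2os had 7 and Gm42529 53 UMIs in the kept cells.

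A second question was whether the genotype difference depends on dividing cells. Cells were parted by the number of 10 mitosis genes found in them, namely Mki67, Top2a, Cenpf, Ccnb1, Cdk1, Birc5, Ube2c, Aurkb, Plk1 and Tpx2. At least 1 was found in 8.49%, 41.9%, 4.74% and 60.1% of melanotroph-gated cells. Macrophage-gated cells gave 5.79%, 11.3%, 4.52% and 24.1%, and the part of free RNA in these calls was not tested. After thinning to 1000 UMIs the melanotroph-gated shares were 0.926%, 11.2%, 0.877% and 17.7%, beside 1.44%, 5.66%, 2.12% and 11.25% for macrophage-gated cells.

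In the cells without any mitosis gene UMI, 496, 929, 543 and 2616 in number, 8 of the 9 genes had at least 20 UMIs at each age, and Fancd2 had fewer. Of these 8 genes 5 were at least 1.5-fold higher in p25OE at 14 weeks and none was lower, beside 15.6% and 8.27% of 13625 genes with as many UMIs. At 40 weeks 5 were again higher and none lower, beside 20.5% and 16% of 13683 genes. H2afx had ratios of 2.22 (1.95 to 2.54) and 2.33 (1.93 to 2.84), the first being close to that in all gated cells. Mdc1 had ratios of 2.76 (2.14 to 3.59) and 3.43 (1.93 to 6.74), or 5.08 and 5.81 after thinning to 1000 UMIs. The thinned values rest on no more than the 3 and 1 thinned WT cells that held a Mdc1 UMI among all gated cells. Brca2 had ratios of 2.11 (1.58 to 2.85) and 3.38 (1.60 to 8.57).

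Chek1 remained at 6.19 (3.41 to 12.2) and 4.58 (1.51 to 22.7), the latter on 76 UMIs in p25OE against 3 in WT. Brca1 had ratios of 6.16 (2.56 to 17.95) and 2.23 (0.706 to 11.3), on 6 and 3 WT UMIs. Fancd2 had ratios of 3.26 (0.583 to 33.0), on 6 UMIs in p25OE and 2 in WT, and 0.452 (0.130 to 1.97), on 10 and 4 UMIs, and both intervals span 1. Atm, Atr and Chek2 stood at 1.19, 1.14 and 1.03 at 14 weeks and at 1.10, 0.954 and 0.698 at 40 weeks in these cells, and Atr was 1.21 at 40 weeks by plain CPM. After thinning to 1000 UMIs Atm was 1.83 and Atr 1.98 at 14 weeks, and Atr 2.20 at 40 weeks. Among all gated WT cells so thinned, 10 held an Atm and 8 an Atr UMI at 14 weeks, and 3 an Atr UMI at 40 weeks. Brca1 was 1.45 at 40 weeks under the stricter gate, with each threshold doubled.

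Cells without mitosis UMIs can still replicate their DNA, so they were also parted by 20 S phase genes such as Mcm2, Pcna and Tyms. These steps were chosen after the data had been seen. Where 0 to 2 S phase genes were found, H2afx stood at 37.1 CPM (30.9 to 44.2) in WT and 117 (104 to 132) in p25OE at 14 weeks. At 40 weeks it stood at 30.8 (25.2 to 37.3) and 109 (101 to 117). Such cells had median depths of 12320, 4457, 6802 and 3881.5 UMIs, and fewer phase genes are found in shallower cells. A missing UMI does not show that a cell is not cycling, and the part of depth and of free RNA was not tested.

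The same exclusions moved other genes. With cells of 3 or more S phase genes left out as well, the genotype ratio of Brca2 at 14 weeks became 1.27, under the 1.5-fold mark, while Chek1 became 13.7 and Brca1 10.97 on 1 WT UMI each. Leaving out every cell with any S phase gene UMI gave 2.83 for Chek1, 1.77 for Mdc1 and 0.708 for Atr at 14 weeks, and 7.83 for Brca2 and 0.507 for Atr at 40 weeks. These cells are a part of those with 0 to 2 S phase genes, so the WT counts behind the values are low. In that larger set WT held 1 Chek1, 23 Mdc1 and 42 Atr UMIs at 14 weeks, and 5 Brca2 and 39 Atr UMIs at 40 weeks.

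Within p25OE at 14 weeks the S phase steps had median depths of 4457, 8883 and 13324 UMIs. H2afx stood at 117, 76.4 and 58.2 CPM with 0 to 2, 3 to 7 and 8 or more S phase genes, while Chek1 stood at 4.28, 9.89 and 14.0 CPM. The intervals of neighbouring Chek1 steps overlapped, as did those of the upper pair of H2afx steps. At 40 weeks H2afx stood at 109, 78.1 and 91.2 CPM and Chek1 at 4.17, 4.11 and 8.90 CPM. Brca1 stood at 3.42, 3.60 and 7.01 CPM at 14 weeks, with overlapping intervals.

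**Figure D3:**
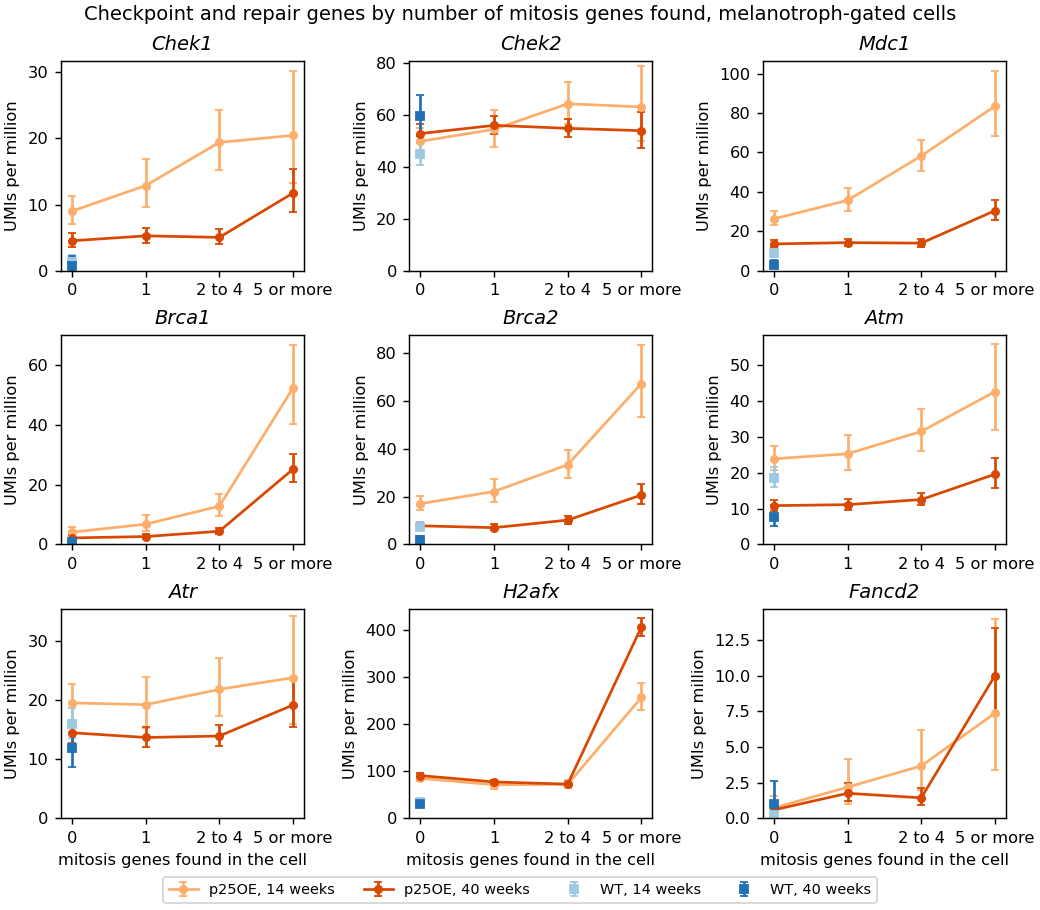
Level of each gene in CPM against the number of mitosis genes found in a melanotroph-gated cell, with exact 95% Poisson intervals, for both p25OE libraries, and for both WT libraries at 0 mitosis genes only. In p25OE at 40 weeks H2afx goes from 90.6 at 0 to 72.5 at 2 to 4 and then to 405.5 at 5 or more mitosis genes, and Chek2 lies between 52.8 and 55.9.

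Cells with 5 or more mitosis genes, a step also set after the data had been seen, numbered 2, 56, 0 and 356 among melanotroph-gated cells. The contrast with 0 mitosis genes could thus be drawn in the p25OE libraries only. Of the 9 genes 6 were at least 1.5-fold higher in such cells at 14 weeks and 7 at 40 weeks, beside 12% of 12889 and 13.4% of 13788 genes. None was lower, beside 16.8% and 9.98%. The marked cells were deeper, with median depths of 18655.5 against 6706 UMIs at 14 weeks and 10821 against 5762 at 40 weeks, and doublets were not removed. Marked cells were chosen by genes of mitosis, none of which is among the 9.

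Fancd2 and Brca1 differed most. Brca1 stood at 4.14, 6.80, 12.9 and 52.4 CPM with 0, 1, 2 to 4 and 5 or more mitosis genes at 14 weeks, and at 2.20, 2.66, 4.43 and 25.2 CPM at 40 weeks. The intervals of neighbouring steps up to 2 to 4 genes overlapped in both libraries, and the ratio of the highest to the lowest step was 10.6 (6.88 to 16.5) and 10.2 (6.96 to 15.1). Fancd2 stood at 0.731, 2.19, 3.67 and 7.37 CPM and at 0.594, 1.76, 1.44 and 10.0 CPM. Its ratios were 8.43 (2.68 to 28.8) and 14.9 (7.42 to 33.1).

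H2afx did not follow these steps. It stood at 84.9, 71.2, 72.1 and 256.2 CPM at 14 weeks and at 90.6, 77.2, 72.5 and 405.5 CPM at 40 weeks. The level was thus no higher with 1 to 4 mitosis genes than with none, and the cells with 5 or more stood apart, at ratios of 2.52 (2.20 to 2.89) and 3.97 (3.71 to 4.25). In p25OE at 40 weeks these 5.43% of cells held 8.25% of all UMIs and 31.3% (30.1% to 32.5%) of the H2afx UMIs. They also held 42.3% of the Brca1 and 41.4% of the Fancd2 UMIs.

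Brca2 had ratios of 3.29 (2.48 to 4.36) and 2.35 (1.79 to 3.08) between 5 or more and 0 mitosis genes. Mdc1 had ratios of 2.66 (2.08 to 3.38) and 1.99 (1.60 to 2.47), and Chek1 of 1.90 (1.16 to 3.03) and 2.30 (1.59 to 3.31). Atm had ratios of 1.49 (1.08 to 2.03) and 1.60 (1.23 to 2.07). Atr stood at 1.02 and 1.17 and Chek2 at 1.06 and 0.905, with intervals that span 1.

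A looser contrast was at least 1 mitosis gene against 0. In the p25OE libraries its ratios for Brca1 were 3.37 (2.30 to 5.06) and 2.69 (1.89 to 3.91), which became 2.12 and 1.87 when cells were thinned to 1000 UMIs after the mitosis call. For Fancd2 they were 4.33 (1.79 to 12.7) and 4.23 (2.21 to 9.10), which became 2.42 and 1.81. For H2afx they were 1.03 and 1.22, which became 0.838 and 0.971. In this contrast 5 of the 9 genes in p25OE at 14 weeks and 2 in p25OE at 40 weeks were at least 1.5-fold higher, beside 6.99% and 4.63% of all genes tested. In these p25OE libraries none was lower, beside 5.76% and 2.98%. The WT libraries had only 46 and 27 cells with a mitosis gene UMI. H2afx had ratios of 1.02 (0.737 to 1.37) and 0.237 (0.0283 to 0.874) there, the latter on 2 UMIs in the marked cells, and Brca1 had 5.89 (1.42 to 23.2) on 5 UMIs and 4.65 (0.0887 to 58.0) on 1 UMI.

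**Figure D4:**
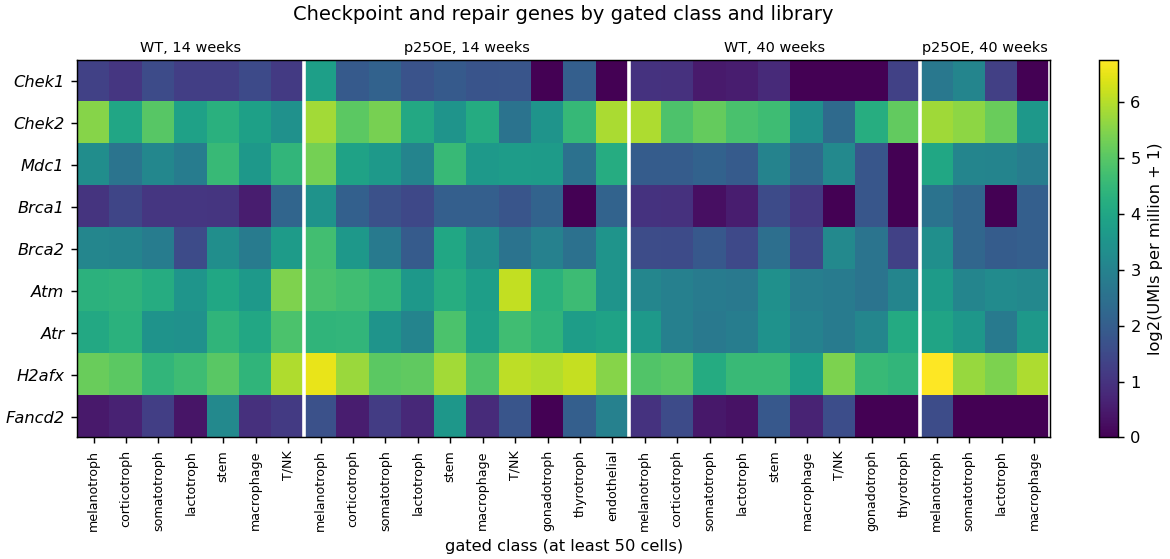
Level of each gene by gated class and library as log2(CPM + 1), shown for classes of at least 50 cells. Within each WT library the row of Chek2 peaks in melanotroph-gated cells, at 45.3 and 59.2 CPM, and at 14 weeks the row of Fancd2 peaks in stem-gated cells, at 8.01 in WT and 10.97 in p25OE.

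Across the gated classes the genes had different centres in WT. Chek2 was highest in melanotroph-gated cells at both ages, at 45.3 CPM (41.4 to 49.5) and 59.2 (52.0 to 67.1), ahead of somatotroph-gated cells at 30.7 (28.5 to 33.1) and 34.6 (31.7 to 37.8). It was lowest in T and NK cell-gated cells, at 9.70 and 4.02 CPM on 8 and 2 UMIs. Atm had the reverse place at 14 weeks: T and NK cell-gated cells led at 42.4 CPM (29.6 to 59.0) in WT and 68.8 (45.7 to 99.5) in p25OE, and in neither library did that interval overlap with the next class. In WT at 40 weeks, T and NK cell-gated cells stood at 6.04 CPM of Atm on 3 UMIs, and the lead was not seen.

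Fancd2 was highest in stem-gated cells in 3 libraries, at 8.01 CPM (5.08 to 12.0), 10.97 (7.29 to 15.9) and 2.65 (1.06 to 5.45) in WT at 14 weeks, p25OE at 14 weeks and WT at 40 weeks. In the first of these the next class, somatotroph-gated cells, reached 1.37 (0.923 to 1.95). In the other 2 the interval overlapped with that of the next class. Stem-gated cells without a mitosis gene UMI held Fancd2 at 7.85 CPM (4.79 to 12.1) and 10.4 (6.58 to 15.6) at 14 weeks, so the level there did not rest on cells marked by mitosis genes. Chek1, in contrast, stood at 1.39 and 2.74 CPM in stem-gated cells at 14 weeks. Mdc1 was also high there, at 22.3 CPM in both libraries of 14 weeks. Its neighbours in the order, T and NK cell-gated cells at 20.6 CPM in WT, had overlapping intervals. Only 13 stem-gated cells were left in p25OE at 40 weeks, and they are not shown.

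Genotype ratios were also taken within the other gated classes of at least 50 cells. Between 172 and 2138 cells a class in WT and 264 and 1180 in p25OE entered for corticotroph-, somatotroph-, lactotroph- and stem-gated cells at 14 weeks. H2afx had ratios of 1.55 (1.12 to 2.16), 1.49 (1.31 to 1.70), 1.38 (1.24 to 1.53) and 1.76 (1.34 to 2.33) in these, each with an interval above 1. At 40 weeks it had ratios of 2.37 (1.28 to 4.05) in somatotroph-gated, 1.93 (1.27 to 2.82) in lactotroph-gated and 3.57 (2.07 to 6.27) in macrophage-gated cells, with 50, 57 and 170 cells in p25OE. At 14 weeks its ratio was 1.47 (0.998 to 2.18) in macrophage-gated and 1.06 (0.636 to 1.72) in T and NK cell-gated cells, with intervals that span 1. The part of free RNA in these ratios was not tested.

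Chek1 had ratios of 1.71 (1.11 to 2.66) in somatotroph-gated and 1.69 (1.09 to 2.59) in lactotroph-gated cells at 14 weeks. The interval in melanotroph-gated cells at that age was 4.70 to 13.9. At 40 weeks Chek1 had a ratio of 13.8 (1.36 to 77.3) in somatotroph-gated cells, on 2 UMIs in 50 p25OE cells against 6 UMIs in WT. This interval holds the whole of that in melanotroph-gated cells, 1.69 to 16.2, so no order of these classes is shown at 40 weeks. At 14 weeks Brca1 had a ratio of 1.98 (1.12 to 3.52) in somatotroph-gated cells, and Mdc1 2.65 (1.22 to 6.33) in corticotroph-gated cells. Also at 14 weeks, Chek2 had ratios of 2.06 (1.30 to 3.34) in corticotroph-gated and 0.556 (0.334 to 0.906) in stem-gated cells. Atr had 0.746 (0.606 to 0.913) in lactotroph-gated cells at that age.

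The melanotroph-gated cells also held RNA of other classes, by amounts that differed between libraries. The 4 somatotroph markers, Gh among them, summed to 8970, 5252, 27578 and 563 CPM, and the 5 lactotroph markers to 6410, 6962, 30309 and 1232 CPM. All 4 and all 5 were found in every library. The 7 macrophage markers summed to 73.3, 106, 371 and 130 CPM. At 40 weeks WT thus held far more hormone RNA of other cells than p25OE, and the part of this in the ratios was not tested.

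Over 30 sums of 1 class in 1 library, the levels of Mdc1 and Brca2 went together most closely of the 36 pairs, with a Pearson correlation of log2(CPM + 1) of 0.84. Atm and Atr followed at 0.77. Chek2 had correlations between -0.18 and 0.39 with the others. These sums share libraries and depth, so the values are descriptions.

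The genes most like each of the 9, among 14970 genes, were named by the 3 highest such correlations. For Chek1 they were Hist1h4a at 0.77, BC001981 at 0.73 and Ttk, a kinase of the spindle checkpoint, at 0.71. For Brca1 they were Ncapd2, a condensin subunit, Cenpk, a kinetochore gene, and Pold1, a DNA polymerase subunit, between 0.75 and 0.79. For Mdc1 they were Sfpq, Smc1a, a cohesin subunit, and Zcchc8, between 0.83 and 0.85. For Brca2 they were Fmr1, Atg16l1 and Phf14, between 0.86 and 0.88.

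H2afx was most like Banf1, Cenpm and Gm26917, all at 0.82. Atm was most like Mrpl9, Nsd3 and Mtrf1l, and Atr most like Hnrnpa2b1, Zzef1 and Amd2, between 0.86 and 0.89 for both. Chek2 was most like Gm14167, the growth factor gene Fgf9 and Hexim2, between 0.80 and 0.81. Fancd2 was most like B3gat2 and the connexin genes Gjc1 and Gja1, between 0.81 and 0.82.

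A list of 92 other genes of the DNA damage response set these values in their pathway. At 14 weeks 41 of them passed 1.5-fold upwards in p25OE, in melanotroph-gated cells, and 1 downwards. At 40 weeks these numbers were 42 and 1, beside the 17.7% and 9.61%, and 20.2% and 18.6%, of all genes. By plain CPM these counts were 51 and 1, and 57 and 0, beside 25% and 5.71%, and 37.6% and 10.6%, of all genes. The median log2 ratio of the list was 0.51 and 0.42. This list, too, was chosen with earlier results of these data known.

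Homologous recombination, the pathway of Brca1 and Brca2, had 12 of 15 genes higher at each age, with a median log2 ratio of 1.57 at 14 weeks and 1.25 at 40 weeks. Brip1, a helicase that binds Brca1, had the highest ratio of the list at 14 weeks, 35.9 (9.74 to 299). In the Fanconi group 7 of 12 genes at 14 weeks and 8 at 40 weeks were higher, and Fanca, a subunit of its core complex, stood at 18.8 (3.15 to 763) at 14 weeks. Of the sensors 9 of 16 were higher at each age, among them Clspn, which links Atr to Chek1, at 19.1 (11.1 to 36.2) and 47.8 (8.55 to 1889). Timeless, which protects replication forks, stood at 8.83 (5.25 to 16.2) at 40 weeks. The intervals of Brip1 and Fanca at 14 weeks and of Clspn at 40 weeks are wide, so the size of these ratios is poorly known.

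End joining, the other route of double-strand break repair, had 1 of 7 genes higher and 1 lower at 14 weeks and none of 7 in either direction at 40 weeks. The lower one was Lig4, the ligase of that route, at 0.584 (0.442 to 0.772). Excision and mismatch repair had 5 of 18 genes higher at 14 weeks. At 40 weeks, 4 stood higher and 1 lower, and these 22.2% higher lie near the 20.2% of all genes. The lower one was Xpa, a damage recognition factor of nucleotide excision repair, at 0.641 (0.561 to 0.736). Ercc1 and Ddb1, of the same repair route, stood at 0.724 and 0.785 at 14 weeks and at 0.748 and 0.705 at 40 weeks. Sesn2 stood at 0.694 at 14 weeks and Rad52 at 0.733 at 40 weeks.

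**Figure D5:**
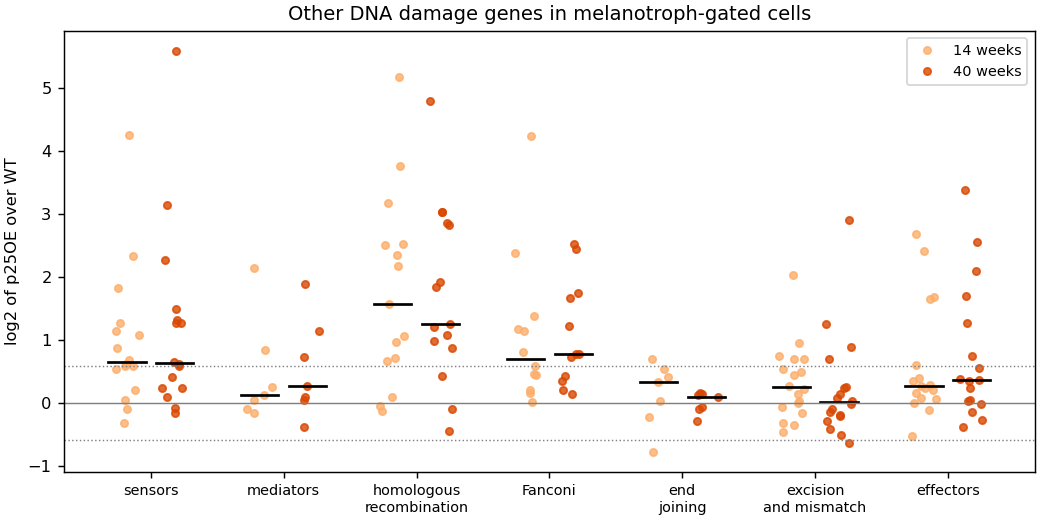
Log2 of the p25OE over WT ratio in melanotroph-gated cells for 92 other DNA damage genes in 7 groups, with 1 point per gene, the group median as a black line and dotted lines at 1.5-fold. The homologous recombination median stands at 1.57 and 1.25, that of end joining at 0.33 and 0.10, at 14 and 40 weeks.

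Among the effectors 5 of 17 genes at 14 weeks and 6 at 40 weeks were higher. Cdkn1a, the cyclin-dependent kinase inhibitor p21 that is induced by p53, had ratios of 6.40 (5.21 to 7.93) and 10.4 (7.21 to 15.5). In cells without mitosis UMIs it stood at 3.66 (2.86 to 4.73) and 7.32 (5.07 to 10.98). Trp53 itself stood at 1.05 (0.917 to 1.21) and 1.30 (1.04 to 1.64), and Mdm2, another p53 target, at 1.27 (1.12 to 1.43) and 1.18 (0.983 to 1.44). Without the cells that held mitosis UMIs, 9 of 14 measured homologous recombination genes were at least 1.5-fold higher at 14 weeks and 11 of 14 at 40 weeks, beside the 15.6% and 20.5% of all genes in these cells. The whole list had 29 of 87 measured genes higher at 14 weeks and 34 of 88 at 40 weeks. The other groups had smaller shares of higher genes. Sensors had 8 of 16 and 7 of 16, Fanconi genes 4 of 10 and 3 of 9, and mediators 0 of 6 and 3 of 7. Effectors had 3 of 16 and 6 of 17, excision and mismatch repair 4 of 18 at each age, and end joining 1 of 7 and 0 of 7. The shares of effectors at 14 weeks (18.75%) and of excision and mismatch repair at 40 weeks (22.2%) lie near those of all genes. Those of end joining (14.3% and 0%) and of mediators at 14 weeks (0%) lie under them.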

How the data were processed

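The deposited values are raw UMI counts, which the authors made with Cell Ranger 3.0.2 on mm10, per the submitters' processing notes; the file headers give version 3.0.1. The labels' protocols give papain digestion, the 10x 3′ v2 kit and independent runs, without saying which libraries shared a run. Depth was 95242353, 77275454, 53714895 and 60662506 UMIs over 8911, 15018, 12054 and 8125 barcodes.

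Kept cells were gated by marker thresholds, and cells passing several gates (2.68%, 2.14%, 4.79% and 0.440%) were left out. No gate took 16.8%, 23.9%, 17.8% and 10.7%. No doublet caller was run. UMIs were summed per library and class with Python 3.11.15, numpy 2.4.6, scipy 1.17.1 and pandas 2.3.3. Size factors were medians of ratios over genes with at least 20 UMIs in each library. Ratios carry exact conditional binomial intervals, levels Poisson intervals, shares Clopper-Pearson intervals, all at 95%. A count of 0 entered the counts over all genes as a floor of 3 UMIs per class sum, and a bound on the other side of 1 as 1. The steps were tested on simulated data.

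Named genes are the 9, their 3 most similar genes, the 4 highest and 4 lowest pathway ratios per age, Trp53, Cdkn1a, Mdm2, Mcm2, Cdk5 and Cdk5r1. Some genes that this rule names are not reported here. The genes and lists were chosen with earlier results of these data known. Gene positions are in GENCODE vM21 on GRCm38.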

Additional observations from a re-analysis of the deposited data

Results flagged for a closer look

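The p25OE over WT ratio of Chek2 in melanotroph-gated cells stood on opposite sides of 1 at the ages, at 1.07 at 14 weeks and 0.710 at 40 weeks, and by plain CPM at 1.21 and 0.920. That of Atr did so too, at 1.11 and 0.955, but by plain CPM both values were above 1, at 1.26 and 1.24. The differences between the ages were not tested, since each group was 1 library and hardly any barcodes were shared across the ages.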

How the results depend on the processing

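Of 236 genotype ratios recomputed under alternatives, 199 stayed within the interval of the reported value, 36 moved out of it, and 1 that had passed 1.5-fold turned its direction, Fancd2 at 40 weeks with 0.866 by the mean of per-cell CPM. A further 16 had 0 UMIs in a group and gave no value. Over all 9 genes, Fancd2 included, the count of genes that were lower at 40 weeks in cells without mitosis UMIs was 1, and it was 0 when at least 2 mitosis genes marked a cell, 0 after thinning to 1000 UMIs and 2 when cells with an S phase gene UMI were left out too. The count of lower pathway genes at 40 weeks was 0 by plain CPM, 2 under the stricter gate and 2 after thinning. Of 90 ratios between cells with and without mitosis UMIs 31 moved, of 72 levels 6, and of 72 shares of cells 34, the latter when thinned to 2000 in place of 1000 UMIs. The causes were not tested. Low WT counts, such as 4 UMIs each for Chek1, Brca1 and Fancd2 at 40 weeks, limit the ratios. No paired analysis was possible because each group is 1 library and the labels carry no replicate numbers.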
